A study of Mus musculus with 14 samples.

Results

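Keratin genes encode the filament proteins of epithelial cells, and their levels were followed here in sorted mouse hair follicle stem cells. The 52 genes described are the protein-coding genes whose symbol is Krt followed by a number and at most 1 letter; 1 further keratin gene was left out and is not analysed here. They were drawn from 34049 genes with a count, and 50 of the 52 were among the 24592 genes that passed the filter on low counts. Krt34 and Krt40, with 38 and 31 estimated counts over all libraries, did not pass it. Total RNA was sequenced from back skin cells sorted for CD34 and for a marker that the labels spell CD45f, without Ly-6A/E. The samples covered 2 ages, postnatal day 18 (P18) and postnatal day 20 (P20), and 2 labelled genotypes, Irx5KO (knockout of Irx5, a homeobox transcription factor) and WT (wild type), in 4 groups, with 3 libraries of each genotype at P18 and 4 of each at P20. The title of the series asks about IRX5 in stem cell activation and in the repair of damaged DNA. The allele, strain and sex of the animals are not given in the sources used here, nor is it stated that each library is a different animal; the p-values reflect variation among libraries, part of which can be technical.

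The libraries held 13618367 to 70083873 estimated counts. Cd34, the gene of the marker used for the positive sort, had 176 to 846 TPM (length-scaled transcript abundance relative to the library total). Ly6a, the gene of the Ly-6A/E antigen used for the negative sort, had 0 to 4.38 TPM. Irx5 was present in every library. At P18 it was at 47.7, 70.7 and 72.9 CPM (counts scaled to a common library total) in Irx5KO and 96.3, 114 and 132 CPM in WT. On the later P20 date (libraries 1 and 2 of both genotypes) it was at 30.0 and 18.2 CPM in Irx5KO and 106 and 96.6 CPM in WT. On the earlier P20 date (libraries 3 and 4) its level was 178 and 168 CPM in labelled Irx5KO libraries and 32.4 and 36.6 CPM in labelled WT libraries, so it went against the labels there. All P20 directions below are those of the labels. Genotype differences at P20 are given within each date and with both dates fitted together, and the age comparisons pool the dates. Mki67, which marks dividing cells, differed in the same libraries: 18.5 and 14.5 CPM in P20 Irx5KO 1 and 2, 424 and 235 CPM in WT 1 and 2, 1234 and 1398 CPM in labelled Irx5KO 3 and 4, and 10.3 and 3.66 CPM in those labelled WT 3 and 4. Ddx3y, a gene of the Y chromosome picked after its values were seen, was at 0.126 to 0.567 CPM in P18 Irx5KO 1, P18 WT 1, P18 WT 2, P20 Irx5KO 1 and P20 WT 1, and at 55.4 to 135 CPM in the other 9 libraries. At P18 the low libraries are those of the earlier date, so this difference and the date cannot be told apart there, and its part in the keratin values was not tested. The deposited file of P18 WT 3 is also marked het; the title, WT, was followed.

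Keratin filaments form from pairs of a type I and a type II keratin, and cells of each epithelial layer use characteristic pairs. Krt5 and Krt14 mark basal cells of the epidermis and of the outer follicle, including bulge stem cells. Krt1 and Krt10 replace them in suprabasal, differentiating cells. Krt6a, Krt75 and Krt17 are known from the companion layer and from the inner bulge, a layer of cells next to the stem cells that keeps the old club hair in place. Further sets build the inner root sheath and the hair shaft. Back skin follicles are around their first resting phase at these ages. The 52 genes comprise 27 type I and 25 type II genes. The type I genes lie on chromosome 11, apart from Krt18, which lies with the type II genes on chromosome 15.

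The start regions of 4 keratins are shown because the results below turn on 2 pairs: Krt10 and Krt77, which had nearly the same profile across libraries, and Krt75 and Krt90, which are neighbours on chromosome 15 with 394 bases between them and whose genotype differences turned sign between the P20 dates in the same way. Each sequence is the RefSeq promoter window of GRCm38.p6, from 250 bases before the start to 50 after it, on the minus strand and written 5′ to 3′. Capitals mark the TATA box letters TATAAA where these were found.
Krt10 (chr11:99389315-99389614): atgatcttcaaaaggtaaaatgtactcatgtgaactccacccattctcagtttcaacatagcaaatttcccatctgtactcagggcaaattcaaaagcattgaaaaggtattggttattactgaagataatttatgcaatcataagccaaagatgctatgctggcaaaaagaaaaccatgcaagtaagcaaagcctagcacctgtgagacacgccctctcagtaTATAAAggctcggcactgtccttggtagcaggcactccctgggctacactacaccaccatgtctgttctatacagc
Krt77 (chr15:101869656-101869955): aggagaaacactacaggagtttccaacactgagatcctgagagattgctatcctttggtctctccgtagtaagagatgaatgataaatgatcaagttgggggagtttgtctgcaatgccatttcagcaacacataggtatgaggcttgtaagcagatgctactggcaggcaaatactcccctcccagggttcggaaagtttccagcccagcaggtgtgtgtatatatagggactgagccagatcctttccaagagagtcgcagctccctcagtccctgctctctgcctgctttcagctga
Krt75 (chr15:101573855-101574154): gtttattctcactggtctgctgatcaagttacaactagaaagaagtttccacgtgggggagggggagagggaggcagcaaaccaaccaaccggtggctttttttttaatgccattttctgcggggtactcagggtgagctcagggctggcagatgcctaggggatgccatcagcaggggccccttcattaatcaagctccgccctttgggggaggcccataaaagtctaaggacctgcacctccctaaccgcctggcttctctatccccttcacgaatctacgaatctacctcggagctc
Krt90 (chr15:101562901-101563200): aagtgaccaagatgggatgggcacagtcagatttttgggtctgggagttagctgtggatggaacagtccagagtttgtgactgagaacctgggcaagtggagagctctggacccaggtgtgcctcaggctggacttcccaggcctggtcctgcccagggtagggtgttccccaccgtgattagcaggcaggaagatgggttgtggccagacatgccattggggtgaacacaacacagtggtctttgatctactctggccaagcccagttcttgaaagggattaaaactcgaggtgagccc

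The letters TATAAA were searched on both strands, together with TGANTCA (the AP-1 motif) and ACANNTGT (an Iroquois motif). No overlap between the motifs was removed. Krt10 held TATAAA beginning 26 bases before its start, and none of the 3 motifs was in the windows of Krt77, Krt75 and Krt90. Of the 36 keratins with a RefSeq promoter, 19 (52.8%) held TATAAA, against 13.6% of 32851 mouse promoters. TGANTCA was in 1 of the 36 (2.78%, Krt13) against 7.81% of all promoters, and ACANNTGT in 1 of the 36 (2.78%, Krt23) against 7.38%. A match is a description of letters, not a site. No promoter entry was matched for Krt6a and Krt80, whose values are given below.

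Together the 52 keratins made up 0.582% to 1.48% of all TPM in a library (median 0.961%). The group means were 0.938% ± 0.153 in P18 Irx5KO and 0.746% ± 0.153 in P18 WT (SD, n = 3 each), and 1.05% ± 0.318 in P20 Irx5KO and 1.09% ± 0.0985 in P20 WT (SD, n = 4 each). TPM is scaled for transcript length, so levels of different keratins are compared on it. A mean of at least 1 TPM was reached by 28 keratins and a mean of at least 100 TPM by 7. Of the 24 below 1 TPM, 13 are hair shaft and 5 inner root sheath keratins.

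**Figure D1:**
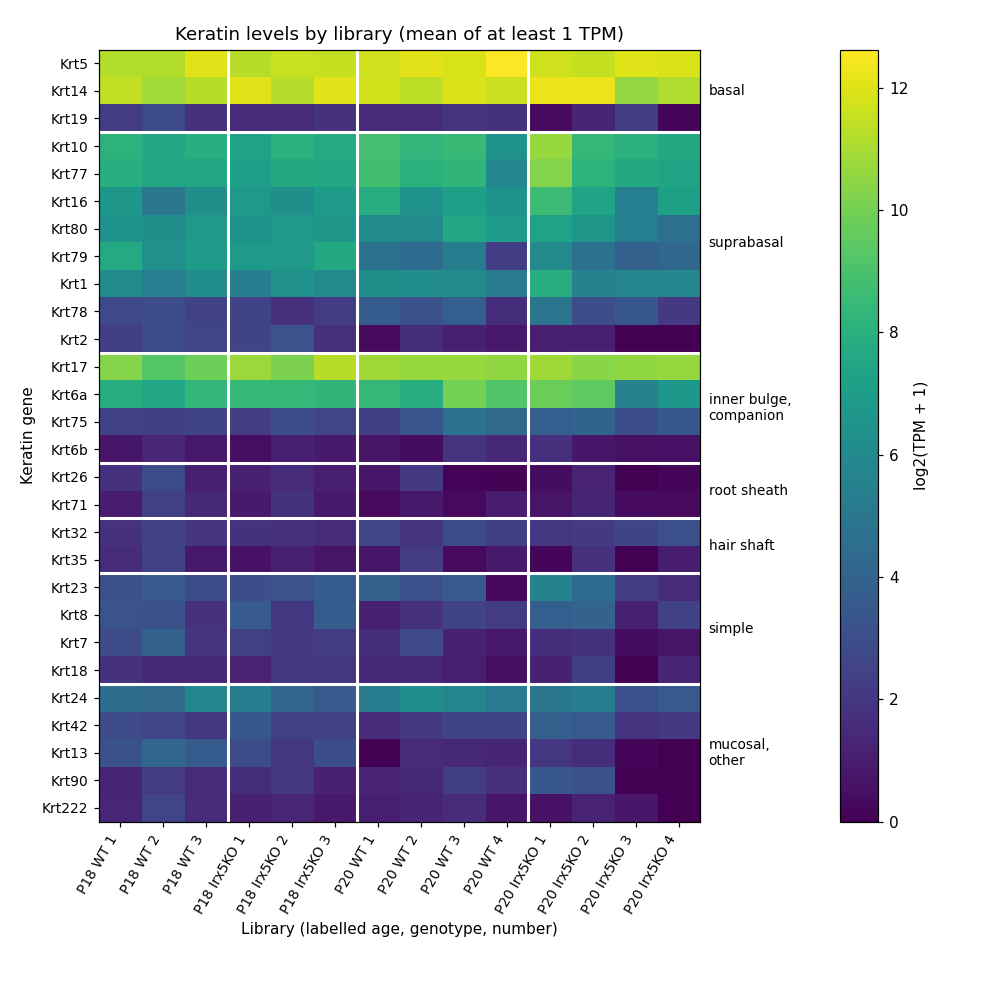
Level of the 28 keratins with a mean of at least 1 TPM (rows, by layer) in each of the 14 libraries (columns, by labelled group), coloured by log2(TPM + 1). Krt5, Krt14 and Krt17 are high in every library, and Krt10 and Krt77 are highest in P20 Irx5KO 1.

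Basal keratins led the profile, with 55.6% to 78.8% of keratin TPM. Krt5, the basal type II keratin (chromosome 15), had a mean of 2800 ± 320 TPM in P18 Irx5KO and 2953 ± 1119 TPM in P18 WT (SD, n = 3 each). At P20 it had 3540 ± 531 TPM in Irx5KO and 4406 ± 1314 TPM in WT (SD, n = 4 each). Krt14, its type I partner (chromosome 11), had 1505 to 4878 TPM. The TPM ratio of Krt14 to Krt5 was 0.367 to 1.73, lowest in P20 Irx5KO 3 and highest in P18 Irx5KO 1, so neither partner was always the more abundant. Krt14 shares 28.2% of its 31-base words with other genes, most with Krt16 (17.6%), and Krt5 shares 12.8%, so reads that fit several genes may have moved some of these values. Krt19, a type I keratin known as a bulge marker, was far lower, at 0.134 to 6.18 TPM.

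The inner bulge and companion layer set held 13.9% to 25.3% of keratin TPM, nearly all of it Krt17 and Krt6a. Krt17, a type I keratin of the outer root sheath and of stressed epidermis, had 625 to 2435 TPM. Krt6a, a type II keratin of the companion layer that is also induced in wounds, had 46.8 to 1025 TPM. Krt75, the type II keratin first described in the companion layer, had 3.83 to 24.8 TPM, and Krt6b, a close copy of Krt6a, 0.358 to 2.75 TPM. Krt6a and Krt6b share 45.9% and 50.3% of their 31-base words with each other, so the Krt6b values are uncertain. Krt6a exceeded Krt6b by 97.1 to 1031 times. In bulk samples, fewer cells of a type and less RNA per cell cannot be told apart.

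Suprabasal keratins held 3.27% to 25.2% of keratin TPM. Krt10 had 85.0 to 1608 TPM, its known partner Krt1 35.5 to 242 TPM, and Krt77, a type II keratin related to Krt1, 57.0 to 1234 TPM. Krt77 exceeded Krt1 in every library, by 1.60 to 5.93 times. The ratio of Krt10 to Krt77 and Krt1 together was 0.809 to 1.09 in all 14 libraries, although each of these genes varied far more. Krt16, known from activated epidermis, had 30.97 to 401 TPM, but 51.9% of its 31-base words are shared, most with Gm11597 (32.2%). Krt79, known from the hair canal and upper follicle, had 3.97 to 211 TPM, and Krt80, a type II keratin of differentiating epithelia, 23.2 to 181 TPM. Krt9, the palm and sole keratin, was the 1 suprabasal member below a mean of 1 TPM, with at most 3.26 TPM.

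Inner root sheath keratins summed to 0.398 to 23.8 TPM over 7 genes, and hair shaft keratins to 5.21 to 47.3 TPM over 15. As a level to read them against, 1466 receptor genes of the sensory families (olfactory and vomeronasal) held 0.100% to 5.29% of counts. Whether all of these genes are silent in skin was not tested. The 3 highest shares were 5.29% in P18 WT 2, 2.34% in P20 WT 2 and 1.75% in P18 WT 1. Hair shaft and inner root sheath sums were also highest in P18 WT 2 and P20 WT 2. Of the 52 keratins, 9 lay above the 95th percentile of receptor TPM in all 14 libraries, 19 in some and 24 in none. The 24 included 13 of the 15 hair shaft and 5 of the 7 inner root sheath keratins. Krt32, a hair cuticle keratin, was the most abundant of the hair shaft set, at 1.85 to 7.58 TPM with a count in every library. Krt35, a keratin of the hair matrix and cortex, had 0 to 4.37 TPM. Keratin associated proteins fill the matrix between hair shaft filaments; of 57 Krtap genes listed, 21 passed the filter and 0 passed the test in any of the 7 comparisons.

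Simple epithelial keratins are known from glands, internal epithelia and Merkel cells. Krt8 had 1.13 to 14.6 TPM and its partner Krt18 0 to 4.09 TPM. Krt8 shares 32.3% of its 31-base words, nearly all with the pseudogene Krt8-ps. Krt23 had 0.190 to 49.6 TPM and Krt7 0.331 to 14.02 TPM. The 8 Merkel cell markers summed to 1.57 to 39.4 TPM, highest in P18 WT 2, and their transcription factor Atoh1 was at 0 TPM in 6 of the 14 libraries. Of the other keratins, Krt24, a type I keratin, had 7.52 to 73.0 TPM, Krt42 2.08 to 13.1 TPM, Krt13, the mucosal type I keratin, 0 to 16.8 TPM, and Krt90 0.0200 to 9.88 TPM.

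Whether loss of Irx5 changed keratins before the start of hair growth was addressed at P18. With the date as a covariate, 0 of 50 keratins passed edgeR's quasi-likelihood test at an adjusted p under 0.05, and 0% of all 24592 genes passed. Irx5 itself did not pass (log2 -1.01 ± 0.89, SE; edgeR adjusted p = 0.916). The spread in this fit was estimated over all 14 libraries, with the same genotype difference for both P20 dates. Differences between the P20 dates thus entered it, and a lack of calls at P18 does not show a lack of change. At an unadjusted p under 0.05 there were 4 of 50 keratins and 971 of all genes, and DESeq2 called 0 keratins. Krt20, Krt36 and Krt76, which were among these 4, had means below 1 TPM and their highest values, 3.19, 4.01 and 2.03 TPM, in P18 WT 2, the library richest in receptor gene counts. Krt17 was the abundant member of the 4. It was at 1695, 1109 and 2435 TPM in P18 Irx5KO and 1297, 625 and 921 TPM in P18 WT. The highest WT library lay above the lowest Irx5KO library, so the groups overlapped. The log2 difference was 0.88 ± 0.36 (SE; edgeR adjusted p = 0.916). Krt14 had a log2 difference of 0.66 ± 0.38 and Krt5 of -0.22 ± 0.28 (edgeR adjusted p = 0.916 and 0.933). Of the 28 keratins with a mean of at least 1 TPM, 10 were on the higher side in Irx5KO, with a median log2 difference of -0.21. The median was -0.01 over 9853 well expressed genes, a set with another threshold, and -0.58 over all 24592 genes tested. The keratin median thus lay between these 2.

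At P20 with both dates fitted together, 0 of 50 keratins and 0% of all genes passed (edgeR; 2 keratins and 1096 genes at an unadjusted p under 0.05; DESeq2 called 0 keratins). The dates went different ways. Of the 28 keratins with a mean of at least 1 TPM, 18 (64.3%) had opposite signs on the 2 dates, close to the 66.2% among 9853 well expressed genes. Within the later date, 0 of 50 keratins passed, where 0.655% of all genes did (edgeR; 7 keratins and 1733 genes at an unadjusted p under 0.05; DESeq2 called 4 keratins, named below). Within the earlier date, 5 of 50 keratins passed (10%), all lower in the libraries labelled Irx5KO, where 4.88% of all genes passed. The difference between the dates, tested as an interaction, passed for 5 of 50 keratins (10%), where 5.27% of all genes passed. All 5 were lower on the earlier date relative to the later. At an unadjusted edgeR p under 0.05 the difference between dates gave 9 keratins (18%), against 16.1% of all genes.

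**Figure D2:**
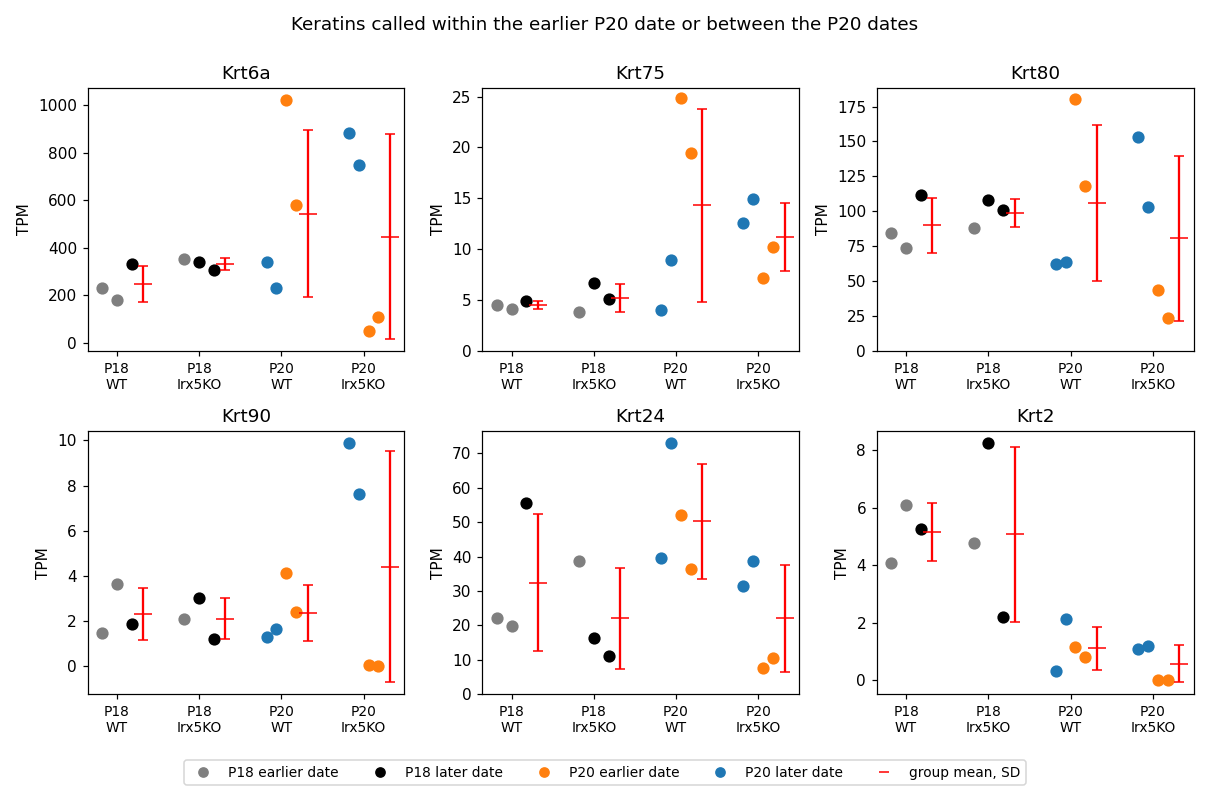
TPM of 6 keratins that passed within the earlier P20 date or between the P20 dates, 1 point per library, coloured by date, with the group mean and SD in red. For Krt6a the earlier-date points of P20 Irx5KO lie at 46.8 and 107 TPM and those of P20 WT at 1025 and 579 TPM, while on the later date Irx5KO lies above WT.

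Krt6a showed the reversal at the highest level of expression. In the later pair of each genotype it had 884 and 750 TPM in Irx5KO 1 and 2 and 339 and 231 TPM in WT 1 and 2. On the earlier date it had 46.8 and 107 TPM in the libraries labelled Irx5KO 3 and 4 and 1025 and 579 TPM in those labelled WT 3 and 4. The genotypes did not overlap on either date, and the direction turned. With 2 libraries of each genotype per date, a lack of overlap is common by chance. Its share over all genes was not counted, here or for the keratins below. The log2 difference was 1.44 ± 0.44 on the later date (SE; edgeR adjusted p = 0.314) and -3.15 ± 0.47 on the earlier (adjusted p = 0.00235). The 2 differed by -4.60 ± 0.64 (adjusted p = 0.0011). Without P18 WT 1, P18 WT 2 and P20 WT 2, the 3 libraries richest in receptor gene counts, a choice made after seeing the data, both calls were lost, with log2 values of -3.16 (edgeR adjusted p = 0.0552) on the earlier date and -4.36 (adjusted p = 0.0948) between dates. At P18, Krt6a was at 351, 342 and 304 TPM in Irx5KO and 232, 178 and 330 TPM in WT, between these extremes.

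Krt75 and Krt90, the chromosome 15 neighbours shown above, turned the same way. Krt75 had 12.6 and 14.96 TPM in later-date Irx5KO and 4.05 and 8.90 TPM in WT. On the earlier date it had 7.13 and 10.3 TPM in labelled Irx5KO and 24.8 and 19.4 TPM in labelled WT. Its pairs of libraries did not overlap on either date, which is common by chance at this size. Neither date passed alone (log2 1.01 ± 0.39, edgeR adjusted p = 0.545, and -1.13 ± 0.39, adjusted p = 0.128), and the difference between dates did (-2.14 ± 0.55, adjusted p = 0.0348). That call was lost when any of P20 Irx5KO 1, 2 or 3 or P20 WT 1, 3 or 4 was left out, with adjusted p of 0.0802, 0.12, 0.0987, 0.1, 0.185 and 0.0505.

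Krt90 had 9.88 and 7.64 TPM in later-date Irx5KO and 1.31 and 1.66 TPM in WT. On the earlier date it had 0.0600 and 0.0200 TPM in labelled Irx5KO and 4.11 and 2.40 TPM in labelled WT. The earlier-date pair held 3 counts in labelled Irx5KO and 372 in labelled WT, a depth-scaled ratio of 86.0 (95% interval 29.2 to 419, counting error only). The fitted log2 difference there was -6.22 ± 1.02 (SE; edgeR adjusted p = 0.00219). On the later date it was 2.49 ± 0.78 (adjusted p = 0.299), and the dates differed by -8.71 ± 1.29 (adjusted p = 0.000671).

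Krt80 followed the same order. It had 153 and 103 TPM in later-date Irx5KO against 62.4 and 63.8 TPM in WT, and 43.4 and 23.2 TPM in earlier-date labelled Irx5KO against 181 and 118 TPM in labelled WT. The log2 differences were 0.93 ± 0.32 (edgeR adjusted p = 0.403) and -1.97 ± 0.33 (adjusted p = 0.0025). The dates differed by -2.90 ± 0.46 (adjusted p = 0.0012). Without P20 Irx5KO 4, the earlier-date value was -1.67 (adjusted p = 0.0506).

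Krt24 and Krt2 passed on the earlier date without turning on the later one. Krt24 had 7.52 and 10.4 TPM in earlier-date labelled Irx5KO and 52.1 and 36.2 TPM in labelled WT, and 31.3 and 38.8 TPM against 39.6 and 73.0 TPM on the later date. It was on the lower side in labelled Irx5KO on both dates, with log2 differences of -2.09 ± 0.36 (edgeR adjusted p = 0.00307) and -0.77 ± 0.35 (adjusted p = 0.686). Their difference of -1.32 ± 0.49 did not pass in the reported fit (edgeR adjusted p = 0.164). It was -1.84, and called, without the 3 libraries richest in receptor gene counts. Krt2, a type II keratin of upper spinous epidermis, had 0 counts in earlier-date labelled Irx5KO and 113 in labelled WT (edgeR adjusted p = 0.0104). With a floor of 3 counts in place of the 0, the depth-scaled ratio of WT to Irx5KO was 26.1. For the observed counts, the 95% interval of this ratio began at 20.9 (counting error only) and had no upper end. On the later date Krt2 had 1.06 and 1.17 TPM in Irx5KO and 0.311 and 2.12 TPM in WT, and its values overlapped. The difference between dates passed for Krt2 (adjusted p = 0.0272), but its calls rest on very low levels: the earlier-date call was lost without P20 Irx5KO 4 (adjusted p = 0.072), and the date call without any of the 4 labelled Irx5KO libraries or P20 WT 3 (adjusted p = 0.0601, 0.0698, 0.066, 0.0916 and 0.083).

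**Figure D3:**
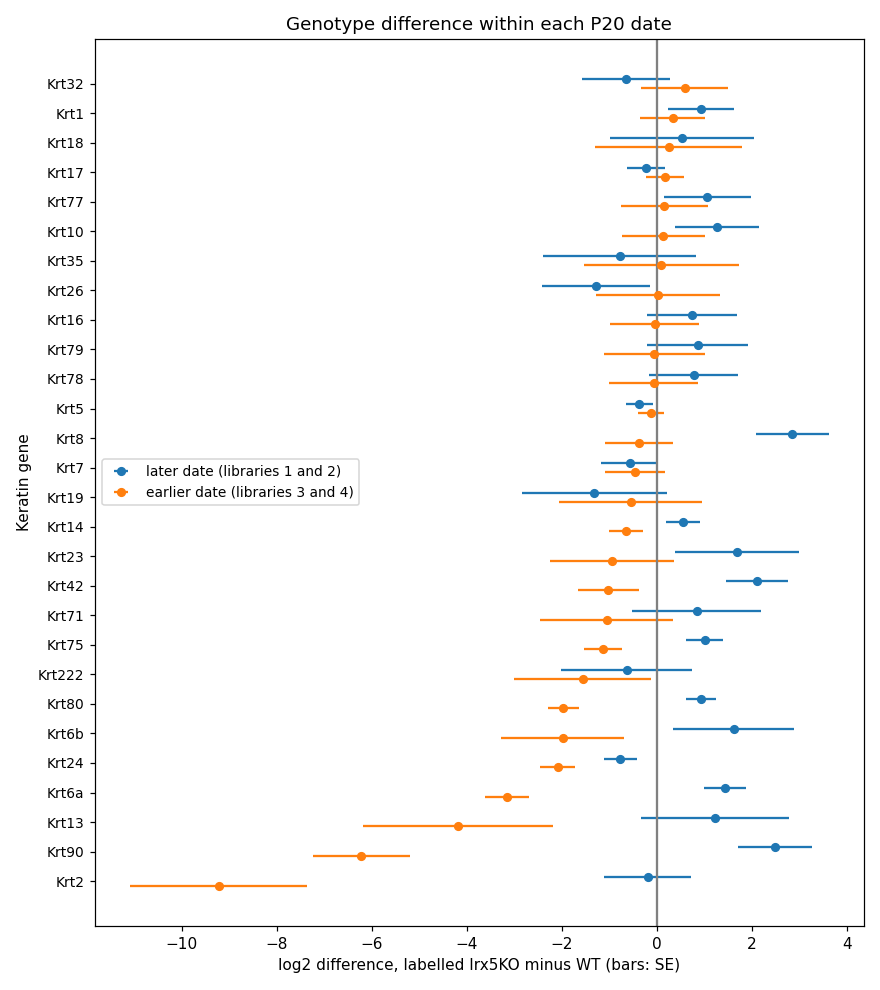
Log2 difference of labelled Irx5KO minus WT (points, with SE bars) for the 28 keratins with a mean of at least 1 TPM, on the later P20 date in blue and on the earlier in orange. Krt6a, Krt90, Krt80 and Krt75 lie right of 0 on the later date and left of it on the earlier; the fitted value of Krt2 on the earlier date rests on 0 counts in labelled Irx5KO.

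The inner bulge and companion layer set was not uniform. Krt17 did not turn with Krt6a and Krt75: on the later date it had 1807 and 1315 TPM in Irx5KO and 1836 and 1625 TPM in WT, and on the earlier 1488 and 1560 TPM in labelled Irx5KO and 1613 and 1493 TPM in labelled WT. Its log2 differences were -0.22 ± 0.40 and 0.17 ± 0.40 (SE; edgeR adjusted p = 0.932 and 1). Over the 4 genes of the set, 0 passed on the later date, 1 on the earlier and 2 between dates. Of all genes, 0.655%, 4.88% and 5.27% passed in these comparisons. The basal keratins Krt5, Krt14 and Krt19 passed in none of the comparisons, except that with no expression filter Krt14 passed between dates (log2 -1.20, edgeR adjusted p = 0.0421). Krt5 had log2 differences of -0.37 ± 0.28 on the later date and -0.12 ± 0.28 on the earlier (edgeR adjusted p = 0.812 and 1).

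Several other keratins lay apart on the later date without passing. Krt8 had 12.8 and 14.6 TPM in Irx5KO 1 and 2 and 1.13 and 2.45 TPM in WT 1 and 2, with a log2 difference of 2.85 ± 0.76 (SE; edgeR adjusted p = 0.153). Krt42 had 13.1 and 10.6 TPM against 2.08 and 3.50 TPM, a log2 difference of 2.10 ± 0.65 (adjusted p = 0.283). The pairs of both genes did not overlap, which is common by chance at this size, and the test over all genes did not call them. With DESeq2 in place of edgeR, 4 keratins were called higher in Irx5KO on the later date: Krt8, Krt6a, Krt90 and Krt42 (adjusted p = 0.0148, 0.0365, 0.0273 and 0.00447). Over all genes, the reported edgeR fit called 161 on this date. The 5 other settings, DESeq2 among them, called 117 to 722, so the 4 keratins are not to be read alone.

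The P20 dates differ in more than keratins. In later-date libraries, Mki67 was lower in Irx5KO (log2 -4.32 ± 0.44, edgeR adjusted p = 0.000429), and on the earlier date it was higher in labelled Irx5KO (7.55 ± 0.51, adjusted p = 8.13e-06). Of 6 division genes, 5 passed as lower on the later date and 6 as higher on the earlier. Of all genes, 0.655% and 4.88% passed on these dates, in either direction. Irx5 itself had log2 differences of -2.07 ± 0.26 and 2.33 ± 0.27 (adjusted p = 0.00145 and 0.000113). Thus Krt6a, Krt80, Krt90 and Krt75 were on the side opposite to Irx5 and Mki67 on both dates, and the part of either in the keratin values was not tested. Of the 12 regulators of hair matrix and hair differentiation, 1 passed on the earlier date: Foxq1, a forkhead factor of hair differentiation. It had 0 counts in labelled Irx5KO and 158 in labelled WT (edgeR adjusted p = 0.00174). With a floor of 3 counts in place of the 0, the depth-scaled ratio of WT to Irx5KO was 36.5. For the observed counts, the 95% interval of this ratio began at 29.4 (counting error only) and had no upper end. Tchh, which encodes trichohyalin of the inner root sheath, passed between dates (-2.59 ± 0.46, edgeR adjusted p = 0.00292). Between dates 2 of the 12 regulators passed, where 5.27% of all genes did.

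Suprabasal keratins were dominated by 1 library. Krt10 had 1608 TPM in P20 Irx5KO 1, against 343, 268 and 202 TPM in P20 Irx5KO 2, 3 and 4 and 470, 316, 376 and 85.0 TPM in P20 WT 1 to 4. Krt77 had 1234 TPM in P20 Irx5KO 1, against 285, 206 and 165 TPM in the other labelled Irx5KO libraries and 444, 262, 307 and 57.0 TPM in WT. P20 Irx5KO 1 was thus above every other library, and P20 WT 4 below every other. In the same library the 16 cornified envelope genes summed to 5306 TPM, against 853 to 2479 TPM in the other 13. The part of such cells in these values was not tested. On the later date the log2 difference of Krt10 was 1.27 ± 0.89 and of Krt77 1.06 ± 0.92 (SE; edgeR adjusted p = 0.802 and 0.853), and without P20 Irx5KO 1 they were -0.30 and -0.41. Of the 16 cornified envelope genes, 0 passed on either date and 1, Sbsn, between dates (-2.24 ± 0.56, edgeR adjusted p = 0.035), where 5.27% of all genes passed.

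From P18 to P20, the question is how keratins change as follicles approach growth. Age cannot be told apart from date, since each age had its own dates. The P20 libraries were pooled by label over both dates, including those where Irx5 went against the labels. Differences between the dates thus entered the spread of these fits. In WT, 0 of 50 keratins passed, where 0.191% of all genes did, and in Irx5KO 0 of 50, where 1.67% of all genes did (edgeR; 4 and 6 keratins at an unadjusted p under 0.05, against 2361 and 3314 genes). DESeq2 called 2 keratins in WT, Krt75 higher and Krt79 lower, and 2 in Irx5KO, Krt78 higher and Krt79 lower. Over all genes, the 6 other settings, DESeq2 among them, called 0 to 595 in WT and 143 to 1458 in Irx5KO. The reported edgeR fits called 47 and 410. Described by ranges alone, 3 of 50 keratins, Krt79, Krt13 and Krt2, were lower in all 8 P20 libraries than in all 6 P18 libraries, where 2.19% of all genes were. In the other direction there were 0 of 50 keratins, where 0.748% of all genes were.

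**Figure D4:**
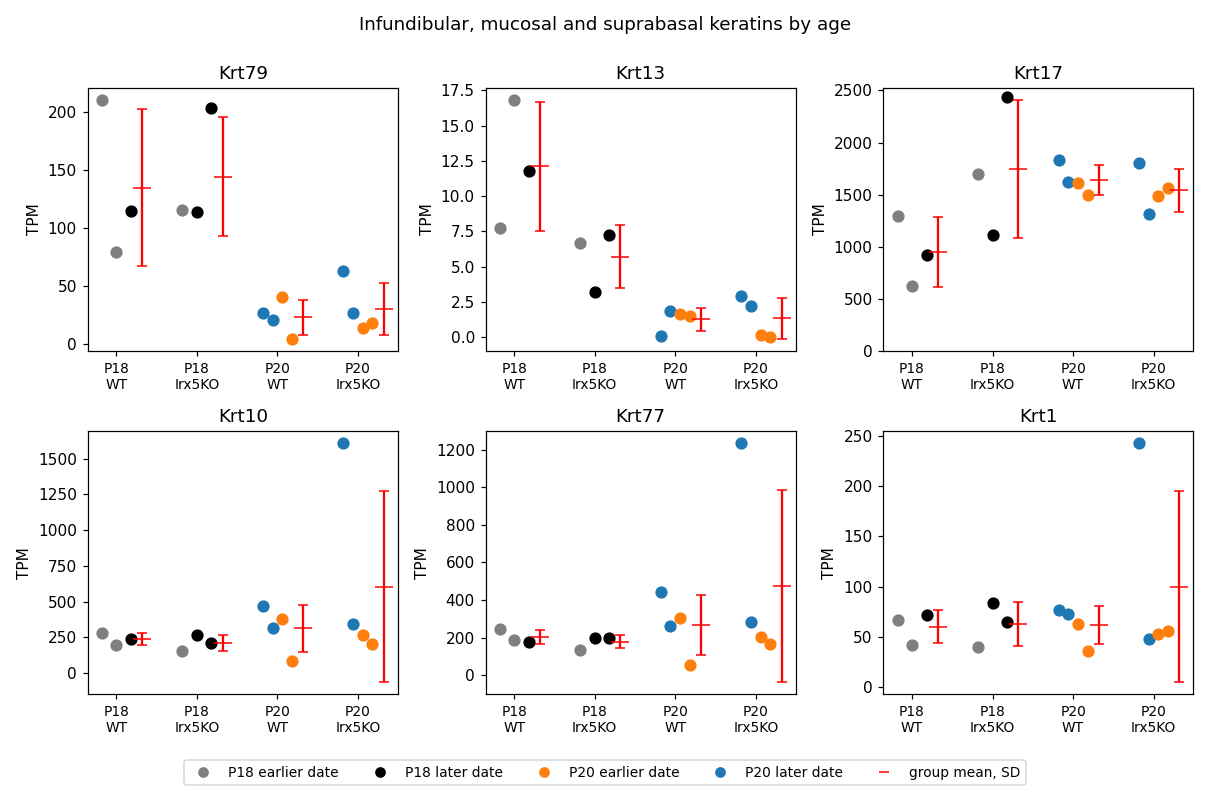
TPM of Krt79, Krt13, Krt17, Krt10, Krt77 and Krt1, 1 point per library, coloured by date, with the group mean and SD in red. Every P20 point of Krt79 (at most 62.7 TPM) lies below every P18 point (at least 78.7 TPM), and 1 P20 Irx5KO library stands apart for Krt10, Krt77 and Krt1.

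Krt79 had the widest age gap among abundant keratins. At P18 it was at 115, 114 and 203 TPM in Irx5KO and 211, 78.7 and 115 TPM in WT. At P20 it was at 62.7, 26.3, 13.6 and 17.5 TPM in Irx5KO 1 to 4 and 26.1, 20.5, 40.2 and 3.97 TPM in WT 1 to 4. Over both genotypes the means were 139 ± 54.2 TPM (SD, n = 6) and 26.3 ± 18.1 TPM (SD, n = 8). The log2 difference was -2.56 ± 0.70 in WT and -2.14 ± 0.69 in Irx5KO (SE; edgeR adjusted p = 0.229 and 0.182). Of 7 infundibulum and upper follicle genes, 0 passed by age in either genotype, with 2 of 7 on the higher side at P20 in each.

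Krt13 had a mean of 8.91 ± 4.76 TPM over the P18 libraries (SD, n = 6) and 1.29 ± 1.09 TPM over the P20 libraries (SD, n = 8). Krt2 had 5.11 ± 2.03 and 0.828 ± 0.715 TPM. Both are low genes, and their age differences did not pass in WT (edgeR adjusted p = 0.521 and 0.604) or in Irx5KO (0.479 and 0.286).

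Krt75 and Krt17 lay on the higher side at P20 in WT. Krt75 was at 4.50, 4.14 and 4.95 TPM in P18 WT and 4.05, 8.90, 24.8 and 19.4 TPM in P20 WT, with a log2 difference of 1.73 ± 0.47 (SE; edgeR adjusted p = 0.186). The later-date libraries P20 WT 1 and 2 had 4.05 and 8.90 TPM. The 24.8 and 19.4 TPM were those of the earlier-date libraries labelled WT 3 and 4, where Irx5 went against the labels. Krt17 was at 1297, 625 and 921 TPM in P18 WT and 1836, 1625, 1613 and 1493 TPM in P20 WT, without overlap. The share of all genes without overlap between these groups was not counted. Its log2 difference was 0.89 ± 0.32 (edgeR adjusted p = 0.336). In Irx5KO the values were 1.26 ± 0.46 for Krt75 (adjusted p = 0.223) and -0.02 ± 0.31 for Krt17 (adjusted p = 1).

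Without the 4 P20 libraries numbered 3 and 4, a choice made after their Irx5 values were known, 6 keratins were called higher at P20 in Irx5KO, where 2.20% of the genes tested were called in either direction. These were Krt78 (log2 2.38), Krt10 (2.34), Krt77 (2.21), Krt23 (2.06), Krt75 (1.47) and Krt6a (1.37), with edgeR adjusted p of 0.0224 to 0.0462. The 2 P20 Irx5KO libraries then left include P20 Irx5KO 1, the library that stood apart for Krt10 and Krt77.

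The protein-coding genes whose log2 CPM followed a keratin most closely were sought over the 14 libraries, among 9569 well expressed genes, as a description without a test. The libraries share dates and groups, so the correlations are not over independent points. For Krt10 the closest were Krt77 (Pearson r = 0.99), Krtdap (0.97) and Calm4 (0.96), both of the cornified envelope list. Krt79 was followed by Defb6 (0.96), Zfp750 (0.93) and Alox12e (0.93). Krt6a was followed by Cul1 (0.93), Ppm1d (0.91) and Lgals3 (0.91), and Krt75 by Hpcal1 (0.93), Efnb2 (0.87) and Bambi (0.86). Krt5 was followed by Rwdd1 (0.94), Skp1a (0.92) and Prdx5 (0.91).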

How the data were processed

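Reads of 14 single-end libraries were quantified by kallisto 0.46.2, per the labels; mm10 and DESeq2 appear in the submitters' processing notes. The tables the authors deposited hold, per the file headers, estimated counts, TPM and effective lengths of 118489 transcripts. Of these, 116816 were matched to GENCODE vM21 genes; the other 1673 held 1.19% to 2.59% of counts and were left out. Estimated counts and TPM were summed per gene, and counts rounded. Near-identical transcripts share reads by kallisto's model. A date code in the deposited data gave 2 dates at each age; what it dates is not stated.

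edgeR 4.0.16 (R 4.3.3) was run over all libraries: default filter by group, TMM factors from well expressed genes (mean log2 CPM 3 or more), robust quasi-likelihood test, Benjamini-Hochberg adjustment over all 24592 genes, threshold 0.05. Genotype was compared with date within age as covariate and within each date, ages without covariate. SE is the log2 difference over the square root of F. Replicates never agreed within sampling noise (chi-square 56.0 to 397 times its degrees of freedom). At P18, deviations from the group mean correlated at 0.37, 0.12 and 0.26 between same-numbered libraries of the 2 genotypes. Between differently numbered ones they correlated at -0.42 to 0.12. The reported fits used no pairing by number, and a replicate block was run only as an alternative. The tests were also run on simulated counts, with changes placed in well expressed genes only and no differences between dates. That run cannot speak for low keratins or for the P18 and age fits, and its outcome is not given here.

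Members, gene lists and tests were chosen with earlier results of these data known. Every keratin may be named; of partner lists, up to 4 of the most abundant or smallest p, of other cell markers up to 3, and the 3 closest pattern neighbours. Alternatives were other scalings, no filter, DESeq2 1.42.0, no date term, a replicate block and leaving out libraries. Of the keratin symbols listed, 2 matched no protein-coding gene. Intervals and floors cover counting error only; depth was 13618367 to 70083873 counts per library. Shared 31-base words were counted over GENCODE transcripts.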

Additional observations from a re-analysis of the deposited data

Results flagged for a closer look

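In P20 Irx5KO, 1 library lay far from the other 3 for 4 keratins: P20 Irx5KO 1 had 1610 TPM of Krt10, 1230 TPM of Krt77, 242 TPM of Krt1 and 2.24 TPM of Krt6b. In P20 WT, the library P20 WT 2 stood apart for Krt35 with 3.55 TPM, and receptor genes held 2.34% of its counts. These gaps were sought in 56 groups (28 keratins in the P20 groups of 4), and chance marks about 1 group in 20.

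The genotype difference on the earlier P20 date minus that on the later was past the test for 5 keratins: Krt90 with a log2 value of -8.71, Krt2 with -9.03 (a fitted value that rests on 0 counts in earlier-date labelled Irx5KO), Krt6a with -4.60, Krt80 with -2.90 and Krt75 with -2.14. Irx5 went against the labels on the earlier date, and how far the labels bear on these values was not tested.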

How the results depend on the processing

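Of 141 counts of keratins called under other settings, 129 stayed within 1.5 times the reported count. Counts of 0 that stayed 0 are among these, since only the earlier date and the difference between dates had a reported count above 0. The count of 0 at P20 with both dates became 1 with no expression filter (Krt24, lower). On the later date, 0 became 4 with no expression filter (Krt10, Krt8, Krt6a and Krt77) and 4 with DESeq2. Leaving out 1 library gave 3 to 6 on the earlier date (5 reported; 3 without P20 Irx5KO 4) and 3 to 5 between dates (5 reported; 3 without P20 Irx5KO 1, 2 or 3 or P20 WT 3). With no expression filter the count between dates was 8, with Krt23, Krt14 and Krt8 added. By age, DESeq2 called 2 in WT and 2 in Irx5KO (Krt75 higher and Krt79 lower in WT, Krt78 higher and Krt79 lower in Irx5KO), and 6 were called in Irx5KO without the P20 libraries 3 and 4. Without the 3 receptor-rich libraries, Krt6a lost its calls and Krt75 passed on the earlier date (-1.14, edgeR adjusted p = 0.0321). In that setting Krt42 (log2 -3.65) and Krt24 (-1.84) were also called between dates, where P20 WT 1 was the only later-date WT library left. Krt42 also passed between dates with TMM scaling over all genes kept (edgeR adjusted p = 0.03) and with DESeq2 (adjusted p = 0.00078). Krt8 passed there with DESeq2 as well (adjusted p = 0.0346). For DESeq2 and for no expression filter, calls over all genes are given only as the ranges below, so these counts are not to be read alone. The causes were not tested.

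Among 639 values of keratins that passed a test under at least 1 setting, signs turned in 6, each when 1 library was left out. Over all keratins tested, most of which did not pass, more turned: at P18, 14 of 50 without P18 Irx5KO 1 and 5 of 50 with TMM scaling over all genes kept; at P20, 7 of 50 with no date term; on the earlier date, 12 of 50 without P20 WT 3. The ranges over libraries left out were -0.295 to 2.02 for Krt10 and -0.407 to 1.79 for Krt77 on the later date (lowest without P20 Irx5KO 1), and -1.96 to 4.05 for Krt23 on the earlier date and -3.68 to 2.33 between dates (highest without P20 WT 3, where Krt23 passed on the earlier date with an edgeR adjusted p of 0.0322). By age in Irx5KO they were -0.006 to 1.55 for Krt23 and -0.100 to 0.898 for Krt6a (lowest without P20 Irx5KO 1).

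Over all genes, calls ranged under other settings from 0 to 208 at P18, 0 to 219 at P20, 117 to 722 on the later date, 1069 to 2699 on the earlier, 1028 to 2468 between dates, 0 to 595 for age in WT and 143 to 1458 for age in Irx5KO. With the replicate block, 0 keratins and 0 genes passed at P18 and at P20, so it changed no call. At P20, same-numbered libraries correlated at 0.07, 0.32, 0.07 and 0.28, and the numbers were not used as pairs in the reported fits at either age. Keratins held 1.39%, 1.21%, 1.80% and 1.84% of counts in P18 Irx5KO, P18 WT, P20 Irx5KO and P20 WT, above their shares of TPM. A planned ratio of type I to type II keratins was not run, since 1 keratin gene was left out. At these depths, 3 counts correspond to 0.0433 to 0.225 CPM.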
